A study of Mus musculus with 2 samples.

Results

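At 132 protein-coding genes H3K4me3 peaks near the 5' end were called only before it. In both replicates a called peak ended within 1000 bp upstream of the gene's 5' end, read along the gene's strand. No peak of either replicate covered that end, and none lay within 1000 bp downstream of it. These are 132 of the 21531 protein-coding 5' ends of the mouse build GRCm38 whose strand was known, or 0.613% (95% Wilson interval 0.517 to 0.727, counting error only). The genes were chosen by the positions of the called peaks in both replicates, so their number and the positions, values and widths of their peaks are described below with no test.

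Both samples were MEL cells, a mouse erythroleukaemia line, after 5 days in 2% dimethyl sulfoxide (DMSO), and they were labelled biological replicates 1 and 2. Chromatin was immunoprecipitated with an antibody against H3K4me3, histone H3 trimethylated at lysine 4, and fragments of 150 to 350 bp were sequenced. The 2 samples form 1 group and untreated cells were not analysed here, so every value describes the treated line and none describes a response to DMSO. The replicates held 48026 and 46950 peaks on chromosomes 1 to 19, X and Y. The peak sets hold no read counts, and the depth behind a value is unknown. Of the marker genes checked, 13 of 15 erythroid, 2 of 5 myeloid, 0 of 4 B cell and 0 of 4 T cell genes had a peak of both replicates within 1000 bp of the 5' end, and the unmarked erythroid genes were Hbb-bs and Gata1.

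H3K4me3 is deposited by the SET1 and MLL methyltransferase complexes and sits on the nucleosomes around the start sites of active and poised genes. At many starts the nucleosomes flank a short depleted stretch, and the mark is usually stronger on the transcribed side. Mammalian promoters are often transcribed in both directions, and many pairs of genes are arranged head to head with their starts close together (divergent genes). A mark before a gene's start may therefore also be a mark after the start of its neighbour.

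The sequence just before the 5' end is shown for 5 genes whose upstream peak reached into the last 250 bp and covered no other gene's 5' end, to show where the called mark stops. They were picked after their values were seen. All are from RefSeq promoter windows on GRCm38.p6, read 5' to 3' along the gene, and the last base is the one before the 5' end. Capitals mark bases covered by peaks of both replicates. Muc1 is at chr3:89228806-89229055 on the + strand, Chchd10 at chr10:75932880-75933129 (+), Syp at chrX:7638330-7638579 (+), H2ac18 at chr3:96245247-96245496 (+) and Clca3a1 at chr3:144760978-144761227 (−).
Muc1: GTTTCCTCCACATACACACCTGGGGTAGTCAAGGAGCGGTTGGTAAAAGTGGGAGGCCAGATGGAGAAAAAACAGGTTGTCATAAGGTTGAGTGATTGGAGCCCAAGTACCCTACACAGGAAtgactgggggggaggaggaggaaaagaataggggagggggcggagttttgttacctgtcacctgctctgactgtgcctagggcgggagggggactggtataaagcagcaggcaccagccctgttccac
Chchd10: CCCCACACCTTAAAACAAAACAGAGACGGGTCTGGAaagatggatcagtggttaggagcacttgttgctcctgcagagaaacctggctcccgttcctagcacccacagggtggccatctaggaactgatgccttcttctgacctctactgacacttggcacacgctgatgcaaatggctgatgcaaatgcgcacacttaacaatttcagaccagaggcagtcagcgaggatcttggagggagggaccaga
Syp: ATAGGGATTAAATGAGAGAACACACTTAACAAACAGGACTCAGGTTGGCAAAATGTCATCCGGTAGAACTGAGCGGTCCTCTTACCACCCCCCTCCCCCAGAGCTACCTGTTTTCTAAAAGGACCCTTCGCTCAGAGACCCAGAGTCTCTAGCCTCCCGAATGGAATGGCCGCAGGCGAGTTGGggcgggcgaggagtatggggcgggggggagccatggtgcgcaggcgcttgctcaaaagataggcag
H2ac18: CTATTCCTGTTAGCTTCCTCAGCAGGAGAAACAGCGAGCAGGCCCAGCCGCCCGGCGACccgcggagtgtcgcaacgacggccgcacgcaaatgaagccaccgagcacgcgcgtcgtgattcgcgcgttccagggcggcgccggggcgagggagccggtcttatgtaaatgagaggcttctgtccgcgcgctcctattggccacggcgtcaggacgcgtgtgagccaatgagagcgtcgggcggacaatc
Clca3a1: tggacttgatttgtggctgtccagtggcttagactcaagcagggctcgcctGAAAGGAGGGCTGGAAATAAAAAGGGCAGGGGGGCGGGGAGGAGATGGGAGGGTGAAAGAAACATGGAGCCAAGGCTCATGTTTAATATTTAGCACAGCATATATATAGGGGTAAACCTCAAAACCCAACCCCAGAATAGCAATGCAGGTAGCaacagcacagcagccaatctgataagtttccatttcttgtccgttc
The capitals span 122 of the 250 bases for Muc1, 36 for Chchd10, 184 for Syp, 59 for H2ac18 and 153 for Clca3a1. The peaks stopped before the 5' end in each, and the stretch without capitals was not covered by both. The H2ac18 window held 34 CG dinucleotides, 4 of them under the peaks, and the Syp window held 11, 6 of them under the peaks. The Muc1 and Clca3a1 windows held 3 each, with 1 under the peaks. A RefSeq window at the 5' end existed for 54 of the 132 genes (40.9%). This is below the 80% required for a summary over the set, so the planned comparison of CpG content and motifs is void.

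The nearest upstream peaks of the 132 genes were short and of moderate value. Their enrichment value, the authors' own value per peak on a scale that is not stated, had a median of 5.38 in replicate 1 (2.23 to 22.5) and 5.79 in replicate 2 (2.56 to 19.3). Over all deposited peaks the medians were 5.51 and 5.31. The median width was 369 bp in replicate 1 and 398.5 bp in replicate 2, against 458 and 437 bp for all peaks. The gap, the distance from the near edge of the peak to the 5' end, had a median of 487 bp in replicate 1 and 425.5 bp in replicate 2. The mean gap was at most 100 bp for 17 genes, at most 250 bp for 44 and at most 500 bp for 74, so the peaks were spread over the whole kilobase, as the plot of peak positions shows. A single upstream peak was present for 98 genes in both replicates.

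**Figure D1:**
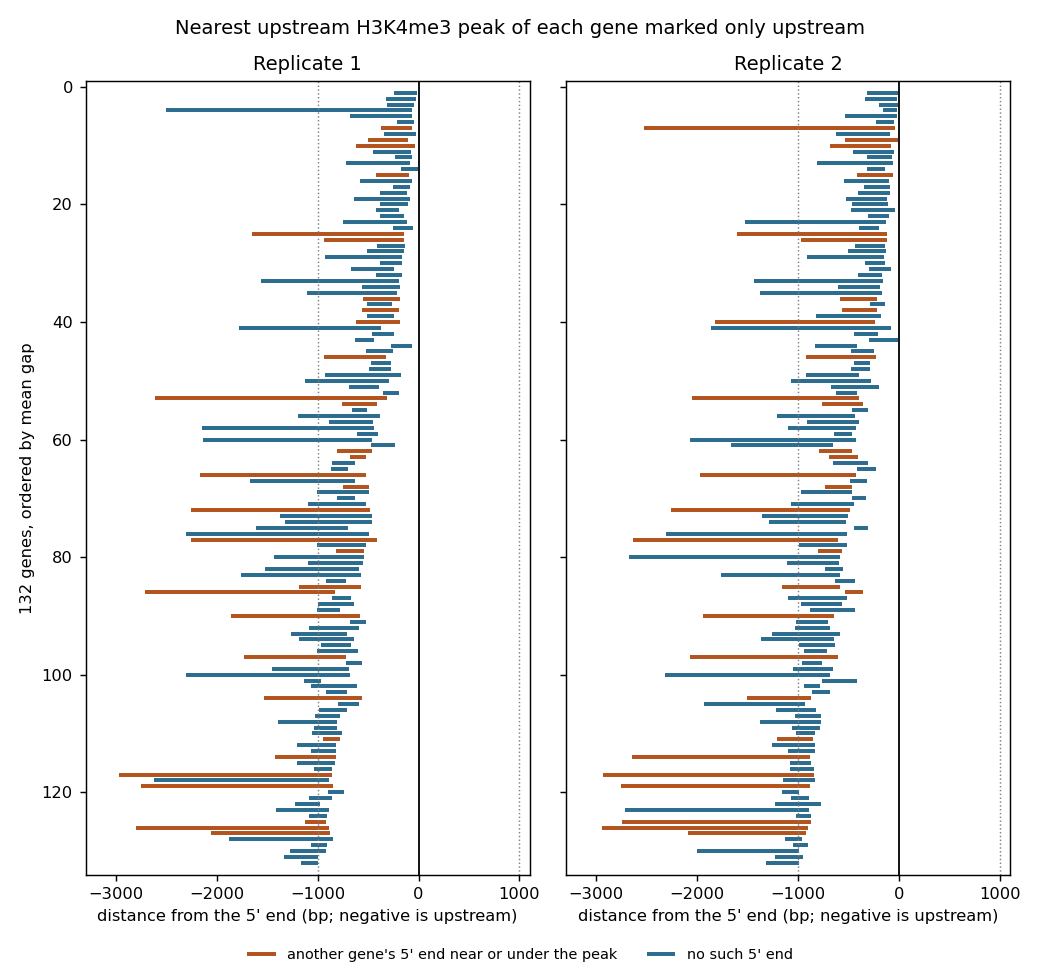
Nearest upstream peak of each of the 132 genes in replicates 1 and 2 (bars), by distance from the 5' end in bp (x axis, negative is upstream) and ordered by mean gap (y axis). Orange bars are the 31 genes with another gene's 5' end within 1000 bp upstream of their own or under upstream peaks of both replicates. No bar reaches the 5' end at 0.

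Ends marked only downstream, on both sides or across the end in both replicates carried higher and wider peaks. The mean of the replicates' values had a median of 5.79 in the set (quartiles 4.07 and 9.17). It was 9.17 at the 580 ends marked only downstream (2.69% of all ends), and 12.4 at the 4310 ends covered in both replicates. At the 2753 ends with peaks on both sides it was 9.43 for the upstream peak and 11.9 for the downstream peak. Widths followed the same order at the extremes, with a median of 392.5 bp for the upstream-only peaks, 836.75 bp for downstream-only peaks and 1509.25 bp for peaks over the end. The median gap was 472.5 bp in the upstream-only set, 283.75 bp at ends marked only downstream, and 119.5 bp upstream and 62.5 bp downstream at ends with peaks on both sides. For the upstream-only set it was 265.5 bp without replicate 2 and 155 bp with a window of 500 bp, and the other classes were not recomputed under those settings. Since peak positions define these classes, their differences are descriptions.

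**Figure D2:**
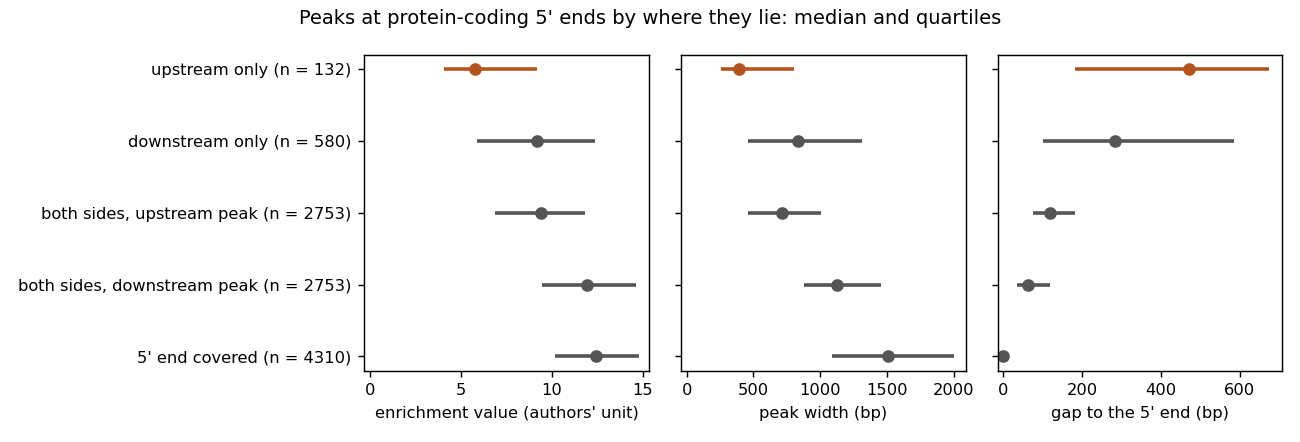
Median (point) and quartiles (line) of the enrichment value, the width in bp and the gap to the 5' end in bp for peaks at 5' ends of each class, averaged over both replicates. The 132 upstream-only ends (orange) have a median value of 5.79 and a median gap of 472.5 bp, the lowest and the longest of the classes plotted.

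The replicates placed these peaks alike but differed in their values. The nearest upstream peaks of the replicates overlapped each other for 116 of the 132 genes, and among those the gaps differed by a median of 37 bp and by at most 100 bp for 95. The value was higher in replicate 2 for 72 genes and in replicate 1 for 60, with a median ratio of the higher to the lower of 1.31. It differed by more than 2-fold for 13 genes. Iqcn had the largest ratio, 5.28, with 13.5 in replicate 1 and 2.56 in replicate 2. Sspo, which encodes SCO-spondin, had 4.45 and 15.4, and Krt10, a keratin of differentiated epidermis, had 2.64 and 9.74. These values are of the nearest peak only, and at Iqcn and Krt10 the nearest peaks of the replicates did not overlap. In the replicate with the lower value a stronger upstream peak was called farther away. It had 22.8 at Iqcn (replicate 2), 12.7 at Krt10 (replicate 1) and 10.4 at Sspo (replicate 1). Across the 132 genes Pearson's r between the replicates' log2 values was 0.618 and Spearman's rho 0.610, while the gaps had a Spearman correlation of 0.873. Genes are not independent replicates, and both replicate sets share 2 input files, so these are descriptions. The 16 genes without overlap had a median value of 4.36, against 6.39 for the 116 with it.

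**Figure D3:**
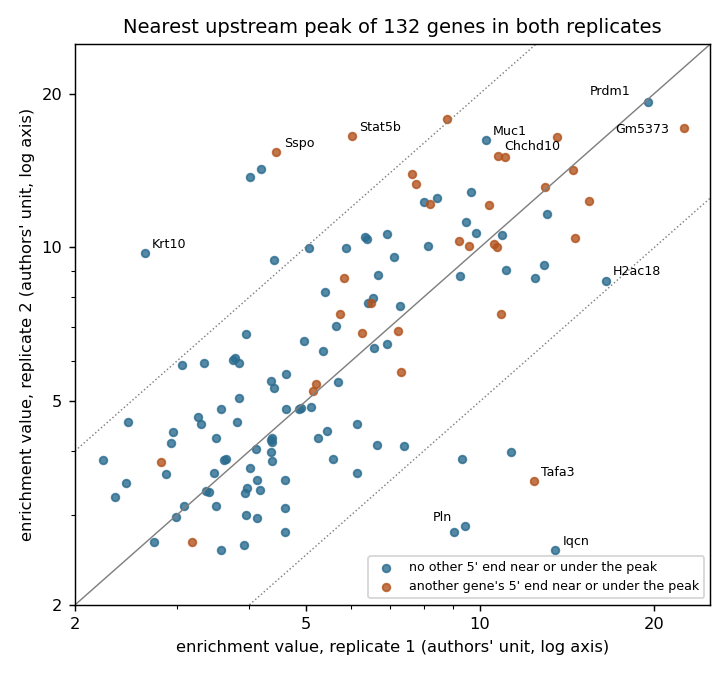
Enrichment value of the nearest upstream peak in replicate 1 (x) and replicate 2 (y), log axes in the authors' unit, 1 point for each of 132 genes; the solid line is equality and the dotted lines a 2-fold difference. Of the points, 13 lie outside the dotted lines, among them Iqcn, Krt10, Sspo and Pln.

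The positions of neighbouring genes had not entered the choice of the set. The shares in this paragraph also depend on the peaks, whose positions had. At 19 of the 132 genes (14.4%, 9.41 to 21.4) the upstream peaks of both replicates covered the 5' end of another annotated gene. At a further 35 (26.5%) the nearest peaks of both replicates overlapped another gene without covering its 5' end. At 78 (59.1%) no other gene lay under the nearest peaks of both replicates, and peaks farther upstream were not checked for this. In this order the nearest peak had a median value of 10.3, 6.14 and 4.88 and a median width of 1240.5, 388.5 and 335.75 bp. What the peaks reach defines these groups, and a wide peak reaches more, so the order is a description. The same share for the downstream peak of ends marked only downstream was 6.72% (39 of 580, 4.96 to 9.06). For ends with peaks on both sides it was 6.43% for the upstream and 5.09% for the downstream peak. Of the 19 neighbours 16 were divergent and 3 lay on the same strand, and 15 were protein-coding. With a window of 500 bp the share of the set was 8.22%, and the other classes were not recomputed at that window. No test was run on this share. Peak width differed between the classes, as given above, and its part in the share was not tested.

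Counting any 5' end within 1000 bp upstream, whether or not a peak covered it, 19 of the 132 genes (14.4%) had a neighbour, all of them divergent. The share over all 21531 ends was 10.4%. It was 2.93% at ends marked only downstream, 24.6% at ends with peaks on both sides, 16.9% at covered ends and 3.55% at ends with no peak. The interval of the set, 9.41 to 21.4%, includes the share over all ends. The body of another gene reached into the upstream kilobase of 47 genes (35.6%), against 30.2% of all ends.

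Both definitions together gave 31 genes, 28 with a divergent and 3 with a same-strand neighbour. In 25 of the 28 divergent pairs the neighbour was protein-coding and in 3 a long noncoding RNA. The 5' ends of a pair lay between 8 and 1827 bp apart (median 692.5 bp). The peaks beside a divergent neighbour had a median value of 10.3 and a median width of 812.5 bp, against 4.89 and 338 bp at the 101 genes with no such neighbour of either strand. Of the 10 genes with the highest values 8 had a neighbouring end, of the upper 66 genes 27, and of the lower 66 genes 4. A neighbour beyond 1000 bp entered only where upstream peaks of both replicates covered its 5' end, which favours wide peaks. The differences in value and width between these genes are therefore descriptions.

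**Figure D4:**
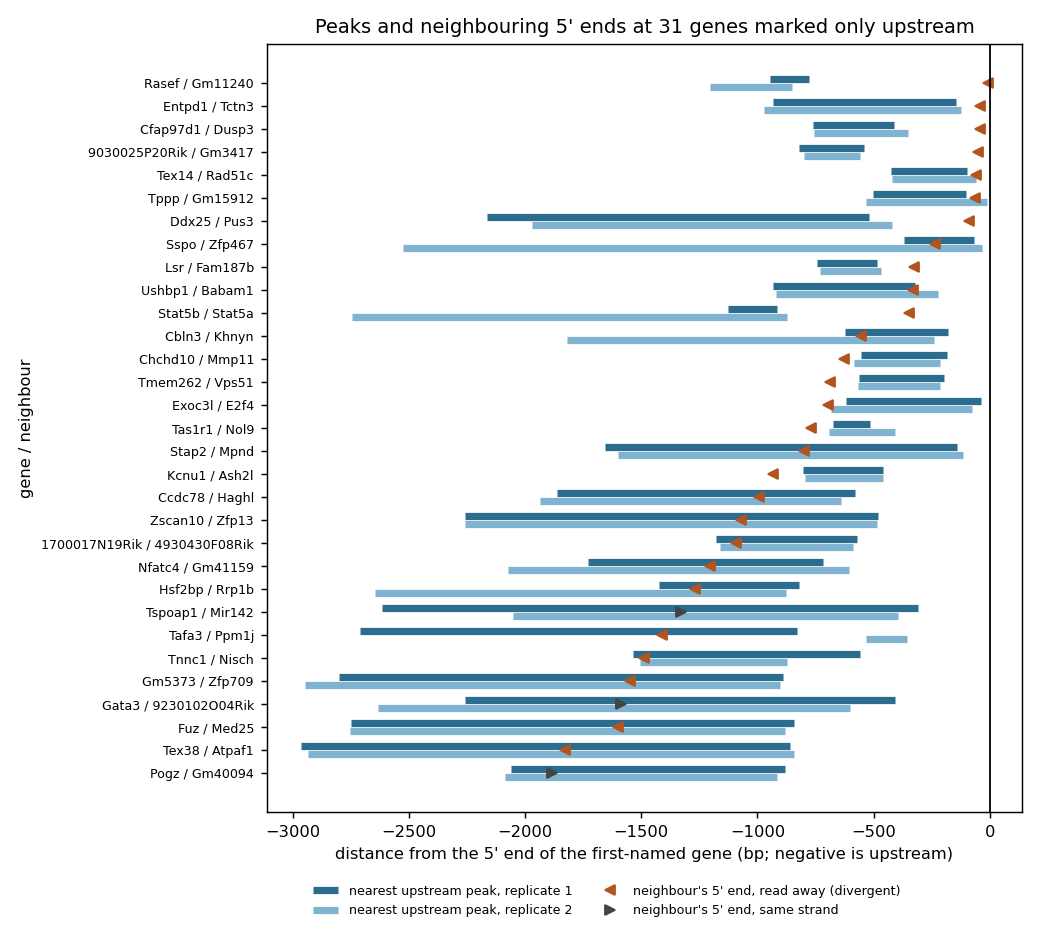
Nearest upstream peaks (bars, replicate 1 dark and replicate 2 light) and the neighbour's 5' end (arrowheads pointing along its transcription) for 31 genes, by distance from the 5' end of the first-named gene in bp. In 13 divergent pairs the arrowhead lies under the drawn peaks of both replicates, and in 7 it lies between the peaks and 0.

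In 16 divergent pairs upstream peaks of both replicates covered the neighbour's 5' end, so the mark that is upstream for the one gene sits on the start of the other. In 13 of them the covering peak was the nearest one in both replicates. The gene with the highest mean value of the set was one of these. Gm5373, a predicted gene with its 5' end at chromosome 8 position 71880519, had 22.5 in replicate 1 and 17.1 in replicate 2 (mean 19.8 ± 3.80, SD, n = 2), from peaks of 1910 and 2043 bp that covered the start of the zinc finger gene Zfp709. The peaks ended 892 and 904 bp before Gm5373. Tex38, a testis-expressed gene, had 13.6 and 16.4 beside Atpaf1, an assembly factor of the mitochondrial ATP synthase. Tnnc1, the troponin C of heart and slow muscle, had 14.5 and 14.2 beside Nisch. Both replicates were alike at Tnnc1 in value, but the gaps were 559 and 874 bp. Cbln3, a cerebellin of the cerebellum, had 8.77 and 17.8 beside Khnyn, so the nearest peak of replicate 2 stood higher by more than 2-fold. Replicate 1 had 2 upstream peaks there, the stronger with 15.3, where replicate 2 had 1.

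Further pairs of this kind are named here. Fuz, an effector of planar cell polarity and cilium formation, had 13.0 and 13.1 beside Med25, a Mediator subunit. Downstream of Fuz, peaks began at 1105 and 1189 bp, just past the limit. A further RefSeq start 1774 bp into Fuz was marked with 9.07 and 12.5. Fuz left the set with a window of 500 bp and with 2000 bp. Ccdc78, a factor of centriole amplification, had 11.0 and 15.0 beside Haghl. Kcnu1, a potassium channel of sperm, had a nearest peak of 6.25 and 6.79. A second upstream peak, of 15.0 and 16.01, covered the start of its neighbour Ash2l, a core subunit of the H3K4 methyltransferase complexes. At Tmem262 likewise a second peak, of 10.4 and 17.1, covered the start of Vps51. In the remaining pairs with both replicates over the neighbour the mean values of the nearest peak ran from 7.13 for Ushbp1 to 12.5 for 1700017N19Rik. These pairs were named after their values were seen, apart from Gm5373, Tex38, Tnnc1, Cbln3, Fuz and Ccdc78.

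In 7 further pairs the neighbour's 5' end lay in the uncovered stretch between the peak and the gene, so that the same peak was upstream of one gene and inside or downstream of the start of the other. Ddx25, an RNA helicase of male germ cells, had 15.4 and 12.3, and the start of Pus3, a tRNA pseudouridine synthase, lay 90 bp from its own. The peaks began 521 and 423 bp before Ddx25 and their summits lay 1055 and 1045 bp into the Pus3 side. Entpd1, which encodes the ectonucleotidase CD39, had 7.63 and 13.9, with the start of Tctn3 42 bp away. In the pooled set Entpd1 had peaks on both sides of its 5' end. Lsr, a lipoprotein receptor gene, had 9.59 and 10.1 with Fam187b 325 bp away, and Cfap97d1 had 5.16 and 5.25 with Dusp3, a phosphatase, 43 bp away. In these 7 pairs the summit lies on the neighbour's transcribed side by construction. In the other 21 divergent pairs it lay there in both replicates for 8 and in neither for 8. Position fixed the side in some of these too. At Chchd10, Exoc3l, Kcnu1, Tmem262 and Tas1r1 the nearest peak lay wholly between the gene and the neighbour's end, so its summit could not lie there. The side was likewise fixed at Tafa3 in replicate 2, and at Tppp and Tex14 in replicate 1. It was open in both replicates only in the 13 pairs with the neighbour's end under both nearest peaks.

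Stat5b and Stat5a, the paralogous transcription factors downstream of cytokine receptors such as the erythropoietin receptor, form another of these pairs. Their 5' ends lay 347 bp apart on chromosome 11, with that of Stat5b at position 100859004. The upstream peak of Stat5b had 6.01 in replicate 1 and 16.5 in replicate 2 (mean 11.3 ± 7.41, SD, n = 2), with widths of 210 and 1872 bp and gaps of 918 and 873 bp. The near edges of these peaks lay close together, while the widths of the nearest peaks differed. Peaks wholly beyond 1000 bp upstream were not read, so the extent of the mark was not compared. RefSeq lists a further start of Stat5b 8423 bp into the gene, and the strongest peaks within 1000 bp of it had 27.4 and 22.3, above every nearest upstream peak of the set in the same replicate.

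The 3 same-strand neighbours were noncoding. Gata3, a transcription factor of T cells, had 10.7 and 10.01 (mean 10.3 ± 0.483, SD, n = 2) from peaks that covered the start of the long noncoding RNA 9230102O04Rik, 1587 bp upstream, and that were 1848 and 2031 bp wide. Its gaps were 409 and 604 bp. A further RefSeq start of Gata3, 9353 bp into the gene, was marked with 15.2 and 19.8. Tspoap1, a RIM-binding protein gene, had 10.9 and 7.42 over Mir142, the microRNA gene of blood cells, and Pogz had 5.82 and 8.72 over Gm40094.

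Among genes whose upstream peaks covered no other 5' end, Prdm1 stood first. It encodes Blimp-1, a zinc finger repressor best known from plasma cells. Its 5' end was at chromosome 10 position 44528558 on the − strand, and its upstream peak had 19.5 in replicate 1 and 19.3 in replicate 2 (mean 19.4 ± 0.156, SD, n = 2). The peaks were 1671 and 1646 bp wide and ended 461 and 426 bp before the 5' end. The replicates were close in value, width and gap, and no downstream peak of either followed within 5000 bp. A further RefSeq start 69810 bp into Prdm1 was marked too, with 15.5 and 14.7.

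Muc1, a mucin of epithelial surfaces whose sequence is printed above, had 10.2 and 16.2 with gaps of 115 and 129 bp. Chchd10, a protein of the mitochondrial intermembrane space, had 10.7 and 15.1 with gaps of 183 and 215 bp and a width of 371 bp in both replicates. Both genes were higher in replicate 2 while the near edge of the peak moved by little. The start of Mmp11, a matrix metalloproteinase gene that points away from Chchd10, lay 628 bp upstream and had peaks on both sides. H2ac18, a replication-dependent H2A histone gene, had 16.5 and 8.61 with gaps of 192 and 162 bp. A near-identical H2A gene, H2ac19, lies close by, so how reads were shared between the copies is uncertain.

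Vtn, the plasma adhesion protein vitronectin, had 13.1 and 11.6, and Tmem79, a membrane protein of keratinocytes, had 9.66 and 12.9. Spata48, a spermatogenesis-associated gene, had 12.9 and 9.23 from peaks that overlapped Zpbp. In both replicates they covered a RefSeq start of Zpbp, though not its outermost 5' end. Vpreb1, part of the surrogate light chain of B cell precursors, had 8.02 and 12.3 with gaps of 885 and 896 bp. Its peak covered the 5' end of Top3b in replicate 2 only, where the width was 1821 bp against 529 bp in replicate 1. Such cover in a single replicate was seen at 6 genes, which are not in the 19.

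The shortest mean gaps belonged to Tnfaip8l2, an immune regulator also called TIPE2 (13 and 14 bp), and to Stk25, Clca3a1, Pln and Syp. Tnfaip8l2 had values of 4.12 and 3.50, below the median of the set. Syp, the synaptic vesicle protein synaptophysin, had 8.13 and 10.1 with gaps of 67 and 17 bp. Pln, the calcium pump regulator phospholamban, had 9.42 and 2.85 at the nearest peak, with widths of 2437 and 141 bp. Replicate 2 had 3 upstream peaks there, the strongest with 6.91, where replicate 1 had 1. In the older mm9 peak set Syp and Stk25 were covered at the 5' end given by the GENCODE M1 annotation, which may be another start.

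The longest gaps belonged to Myo7a, an unconventional myosin of the inner ear and retina (993 and 995 bp), Cfap58, Ctrl, Ap1m2 and Pjvk. Their mean values ran from 2.69 at Ap1m2, an adaptor subunit of polarised epithelia and the lowest of the set, to 5.74 at Pjvk. Just outside the 1000 bp limit were Foxa3, with gaps of 1039 and 897 bp and values of 13.3 and 12.9, and Mrpl22, with gaps of 940 and 1004 bp and values of 10.8 and 15.0. Cldn3 and Efna1 were left out by a peak of replicate 2 at 957 and 983 bp downstream. The genes inside and outside the limit therefore differed by short distances.

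Few members of the blood and housekeeping lists were marked this way. None of 10 globin genes, 18 genes of heme synthesis and iron uptake, 16 erythroid transcription factor genes, 22 red cell membrane and carbonic anhydrase genes, 14 late maturation genes or 97 ribosomal protein genes was in the set. None of 19 granulocyte and macrophage or 16 megakaryocyte genes was. The B cell list gave 1 of 12 (Vpreb1), the T and NK cell list 1 of 16 (Gata3) and the histone genes 1 of 103 (H2ac18). Zinc finger genes with a Zfp name gave 1 of 396, solute carriers 2 of 375 and keratins 2 of 111, while none of 1108 olfactory receptor genes was in the set. Beside the 0.613% of all ends, the short lists hold too few genes for a count of 0 or 1 to differ from it detectably.

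Inside the genes, the share with a peak was below that over all genes. Peaks of both replicates lay more than 1000 bp downstream within the gene for 49 of the 132 (37.1%, 29.4 to 45.6), against 46.8% of all protein-coding genes. The share was 84.1% for genes marked only downstream and 18.9% for genes with no peak at the 5' end. The genes of the set had a median length of 14487 bp, against 17268 bp for all genes and 20970.5 bp for those marked only downstream, and the part of length in these shares was not tested. RefSeq listed a further start more than 1000 bp away for 38 of the genes, and in 13 (34.2%, 21.2 to 50.1) it had a peak of both replicates. The share was 43.2% of the 3073 genes with such a start, which that interval includes, and 87.3% of those marked only downstream. For these 13 genes, and for the 49 with peaks farther inside, the description "marked only upstream" holds for the outermost 5' end and not for the gene. Besides Prdm1, Stat5b, Gata3 and Pogz, the 13 with a marked further start include Fam107b, with 11.1 and 19.7 at 8646 bp into the gene. Srrm2, a splicing factor gene, is another, with 14.1 and 16.5 at 12660 bp. At Srrm2 the upstream peak had only 3.50 and 3.12.

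**Figure D5:**
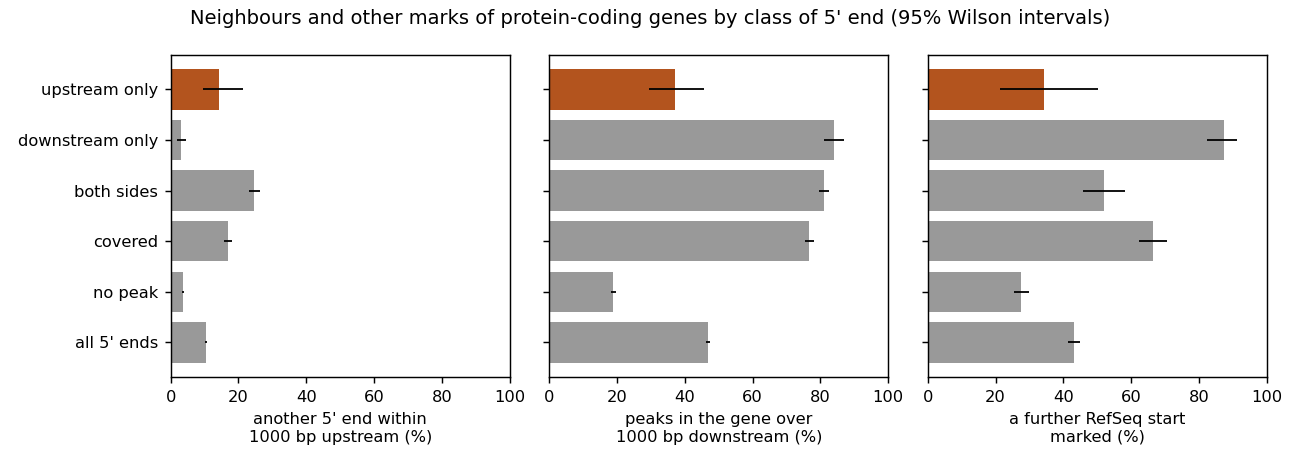
Share of protein-coding 5' ends of each class, in percent with 95% Wilson intervals, with another 5' end within 1000 bp upstream, with peaks of both replicates over 1000 bp downstream in the gene, and with a marked further RefSeq start. The upstream-only ends (orange) stand at 14.4%, 37.1% and 34.2%.

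The authors' other peak sets were then read, those on mm10 at the same ends. In the set from pooled alignments 129 of the 132 ends were marked only upstream and 3 (H2ac18, Entpd1 and Apol11b) had peaks on both sides. In the set of replicated peaks 129 were marked only upstream and 3 (Cpxcr1, Srrm2 and Mak) had no peak. Both sets derive from the same reads as the replicates. The older set on mm9 holds 15810 peaks, and its input reads are not stated by any source used here. It was read at the 5' end that the GENCODE M1 annotation gives for the gene of the same symbol. That end may be another start than the RefSeq end, so a different class on mm9 need not concern the same start. Of the 109 genes placed on mm9 60 (55.0%) had no peak in it, 30 (27.5%) were marked only upstream, 17 (15.6%) were covered and 2 were marked only downstream. Over all 18204 genes placed 52.7% had no peak, 0.571% were marked only upstream and 44.5% were covered. Prdm1 (gap 455 bp), Muc1 (173 bp), Ddx25 (521 bp) and Vtn (613 bp) were among the 30, and Chchd10, Stat5b, Gata3, Entpd1 and Vpreb1 were among the covered 17.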

How the data were processed

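Histone H3K4me3 was profiled by ChIP-seq in 2 MEL samples of 1 group. The authors deposited called peaks on mm10 for each replicate, for pooled alignments and for replicated peaks, and an older set on mm9. Per the notes deposited beside the samples, each replicate's set derives from its own alignments and 2 shared files. The aligner, peak caller and threshold are not given in the sources used here. A deposited peak carries a signal value by the authors (the enrichment value, on an unstated scale) and a p-value and a q-value as −log10, used as deposited.

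Gene ends came from the RefSeq gene table (GRCm38.p6), 1 outermost 5' end per gene. Transcripts on mm10 were not used here, so exons, introns and untranslated regions are not annotated. Strand came from the RefSeq promoter table (17491 genes) or, by symbol or synonym, from GENCODE M1 (3647 and 393), which left out 352 of 21883 genes. The sources gave different strands for 39 of 14742 genes with both, and for 0 of 84 such genes in the set. On mm9, ends were those of GENCODE M1. The per-gene value is that of the nearest upstream peak, and its mean ± SD over replicates assumes that the replicates share a scale.

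The members and lists were chosen with earlier results of these data known. Genes were named by rule: the 10 with the highest mean value, the 10 highest whose peaks cover no other 5' end, the 5 shortest and 5 longest gaps, the 5 widest peaks, and members of blood, ribosomal or histone lists. Other genes were chosen after their values were seen. Peak positions define the set, and 1 group allows no contrast, so no test was run. Shares have 95% Wilson intervals, for counting error only. The classification was tested on simulated data. Python 3.11.15, numpy 2.4.6, pandas 2.3.3, scipy 1.17.1 and matplotlib 3.10.9 were used. Alternatives covered the window, q-value limits, overlap of the replicates, the other sets, each replicate left out, biotype, the definition of a neighbour and the source of strand.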

Additional observations from a re-analysis of the deposited data

How the results depend on the processing

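The reported values were 132 genes, a median gap of 472.5 bp, a median value of 5.79, a median width of 392.5 bp and a neighbour share of 14.4%. With a window of 500 bp there were 73 genes, with a gap of 155 bp, a value of 6.33 and a share of 8.22%, and with 2000 bp 227 genes, with a gap of 850.5 bp and a width of 462 bp. Peaks with −log10 q of at least 2 gave 127 genes, a value of 6.52 and a width of 475 bp, and of at least 5 gave 109 genes, a gap of 418 bp, a value of 8.22 and a width of 630.5 bp. Requiring the replicates' peaks to overlap gave 116 genes, a value of 6.39 and a width of 427.5 bp. The replicated set gave 181 genes, a gap of 391 bp, a value of 6.16 and a width of 498 bp, and the pooled set 211 genes, a gap of 391 bp, a value of 4.28 and a width of 343 bp. Genes of every biotype numbered 331, with a value of 6.33 and a width of 514 bp. Strand from the promoter table alone, added after seeing the data, gave 101 genes, a value of 6.14 and a width of 425.5 bp. Without replicate 1 or replicate 2, that is with the rule applied to 1 replicate, there were 209 to 232 genes, with gaps of 265.5 to 394 bp, values of 4.56 to 4.72, widths of 304 to 335.5 bp and shares of 12.1 to 12.4%. The causes were not tested. Under the other alternatives run the neighbour share lay between 11.4% (protein-coding neighbours only) and 17.4% (−log10 q of at least 5). Of the 132 genes, 40 met the rule under all 9 settings that vary the window, the peak sets or the replicates. The settings that leave out replicate 1 or replicate 2 are among the 9. All 132 meet these by the rule itself, which already requires both replicates.

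No paired analysis was possible because the samples form 1 group. With no read counts, a missing downstream peak cannot be told apart from a mark below the caller's threshold, and the depth is unknown. A single 5' end per gene leaves starts inside the gene out of the rule.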

Other observations

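A few further upstream-only genes are given here, chosen after their values were seen. Slc6a4, the serotonin transporter, had enrichment values of 7.10 and 9.60 with gaps of 216 and 168 bp. Smpd3, a neutral sphingomyelinase, had 8.42 and 12.5, and Cyp27a1, the sterol 27-hydroxylase, had 9.23 and 8.80. The replicates were close in gap at Smpd3 (292 and 282 bp) and Cyp27a1 (454 and 396 bp). Egr3, an immediate early transcription factor, had 5.88 and 9.98 from peaks of 1816 and 1794 bp, among the wide ones of the set. Vpreb3, a B cell precursor gene, had 3.05 and 5.89, and its nearest peaks lay 442 and 13 bp away and did not overlap each other.

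Peaks with a deposited −log10 q under 2 made up 6.06% of the nearest upstream peaks in replicate 1 and 6.82% in replicate 2, against 9.86% and 10.1% of all peaks. For 105 of the 132 genes no downstream peak of either replicate began within 5000 bp, and for 23 both replicates had one between the 1000 bp limit and 5000 bp.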
